A study of Mus musculus with 6 samples.

Results

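The complement system was examined in mouse brain through 8 genes with 10 probes, out of 22578 genes tested and 39429 probes on the array. The genes are the C1q chains C1qa, C1qb and C1qc, the components C4b and C3, the inhibitor Serping1 and the receptors C3ar1 and C5ar1. They were taken by gene name, with every non-control probe, and not by their values. Brain RNA of male C57BL/6N mice was hybridised to 1-colour Agilent arrays, 1 array a sample, with 3 samples titled wild-type sham and 3 titled Pla2g2e knockout sham. Pla2g2e encodes a secreted phospholipase A2. Every title says sham, while the treatment text attached to the same samples describes 60 min of middle cerebral artery occlusion, and groups follow the titles. The labels give neither the animals' age nor the deleted part of Pla2g2e nor the brain region, and they do not say that samples came from separate animals. So the spread behind each p-value may be technical only.

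Complement is a cascade of proteins that tags surfaces and recruits phagocytes. C1q binds a target and activates the proteases C1r and C1s, which cut C4 and C2, and the resulting enzyme cuts C3. C3 fragments mark the surface and small fragments of C3 and C5 act on the receptors C3ar1 and C5ar1. Most complement proteins of the blood come from liver, but in the brain microglia make C1q, astrocytes and other glia make C3 and C4, and complement tagging of synapses is known for its part in synapse removal by microglia.

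The 60-base probes of the array determine which transcripts each value counts, so those for genes on which the results turn are shown 5′ to 3′ as the file gives them. C1qa, C1qb and C1qc lie side by side on chromosome 4, and their 3 probes span 15891 bases (mm9). The C1qa probe lies at chr4:136452409-136452468, the C1qb probe at chr4:136436578-136436637 and the C1qc probe at chr4:136445766-136445825, all on the minus strand. One of the C3 probes (chr17:57343678-57343737) is held in 1 spot an array. The second C3 probe (chr17:57343416-57343475) is held in 10 spots an array. For Serping1, the second probe covers 1507 bases of genome with its 60 bases (chr2:84605968-84607474), so it crosses at least 1 splice junction and reads spliced RNA.
C1qa: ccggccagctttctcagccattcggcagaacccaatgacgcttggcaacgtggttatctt
C1qb: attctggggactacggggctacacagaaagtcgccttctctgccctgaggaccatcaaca
C3, 1-spot probe: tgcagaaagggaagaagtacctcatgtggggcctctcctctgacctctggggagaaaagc
Serping1, second probe: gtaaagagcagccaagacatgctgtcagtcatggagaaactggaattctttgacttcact
The C4b probe (chr17:34865328-34865387, minus strand) holds the letters of the polyadenylation signal, AATAAA, marked in capitals in the 30-base stretch shown here.
C4b: ctctacagggtaAATAAAagaaaagctttt
The file lists C4a transcripts for the C4b probe as well. C4a is a near copy of C4b, so the C4b value cannot be assigned to one of them.

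RefSeq promoter windows (GRCm38.p6, 250 bases before to 50 after the annotated start) were at hand for 5 of the 8 genes. The motif searched was AGGAAG and its reverse complement CTTCCT, which hold the GGAA core bound by ETS-family factors such as PU.1. It occurred in 4 of these 5 windows and in 35.4% of 32851 promoter windows of the same length, with 2 or more matches in 8.25% of them. C1qb held matches 52 bases before and 39 bases after the start, and C1qc held them 194 and 157 bases before it. C3ar1 held 1 match, 5 bases before the start, C5ar1 held matches 189 and 71 bases before it, and C3 held 0. The windows of the neighbouring C1qb (chr4:136886151-136886450, minus strand) and C1qc (chr4:136892865-136893164, minus strand) are shown because these genes varied together over the arrays. Capitals mark the motif, and a match is a description of letters only.
C1qb promoter: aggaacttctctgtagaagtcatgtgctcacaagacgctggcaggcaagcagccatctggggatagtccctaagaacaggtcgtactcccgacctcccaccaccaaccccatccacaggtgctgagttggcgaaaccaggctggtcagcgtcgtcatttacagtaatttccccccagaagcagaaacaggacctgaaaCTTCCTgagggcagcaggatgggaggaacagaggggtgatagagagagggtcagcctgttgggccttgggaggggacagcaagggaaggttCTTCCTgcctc
C1qc promoter: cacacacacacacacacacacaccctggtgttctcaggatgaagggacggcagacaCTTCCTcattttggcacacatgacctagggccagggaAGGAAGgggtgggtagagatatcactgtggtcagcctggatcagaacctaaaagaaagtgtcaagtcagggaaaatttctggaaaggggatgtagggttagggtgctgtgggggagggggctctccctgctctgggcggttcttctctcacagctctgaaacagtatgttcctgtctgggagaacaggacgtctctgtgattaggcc

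Levels are log2 processed signals, set so that on each array 0 is the signal under which 75% of the non-control probes lie. They compare 1 probe across arrays and not 1 gene with another. Differences are knockout minus wild type on the same log2 scale. Between 82.0% and 85.3% of 43020 spots an array were well above background. All 10 complement probes were well above background on all 6 arrays, and 0 of their spots were saturated. Wild-type 1, 2 and 3 and knockout 1 lay on slide 1, and knockout 2 and 3 lay on slide 2, so for these 2 knockout arrays slide and genotype cannot be told apart. Precision is limited by the small number of arrays. Both Pla2g2e probes were dim, and neither checks the deletion, since the deleted part is not given. The brighter one measured -7.09, -7.26 and -6.67 in wild type and -7.07, -7.87 and -7.83 in knockout, a difference of -0.59 ± 0.26 (SE). Knockout 1 lay within the wild-type values. The other differed by 0.33 ± 0.18 (SE), with higher values in knockout.

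**Figure D1:**
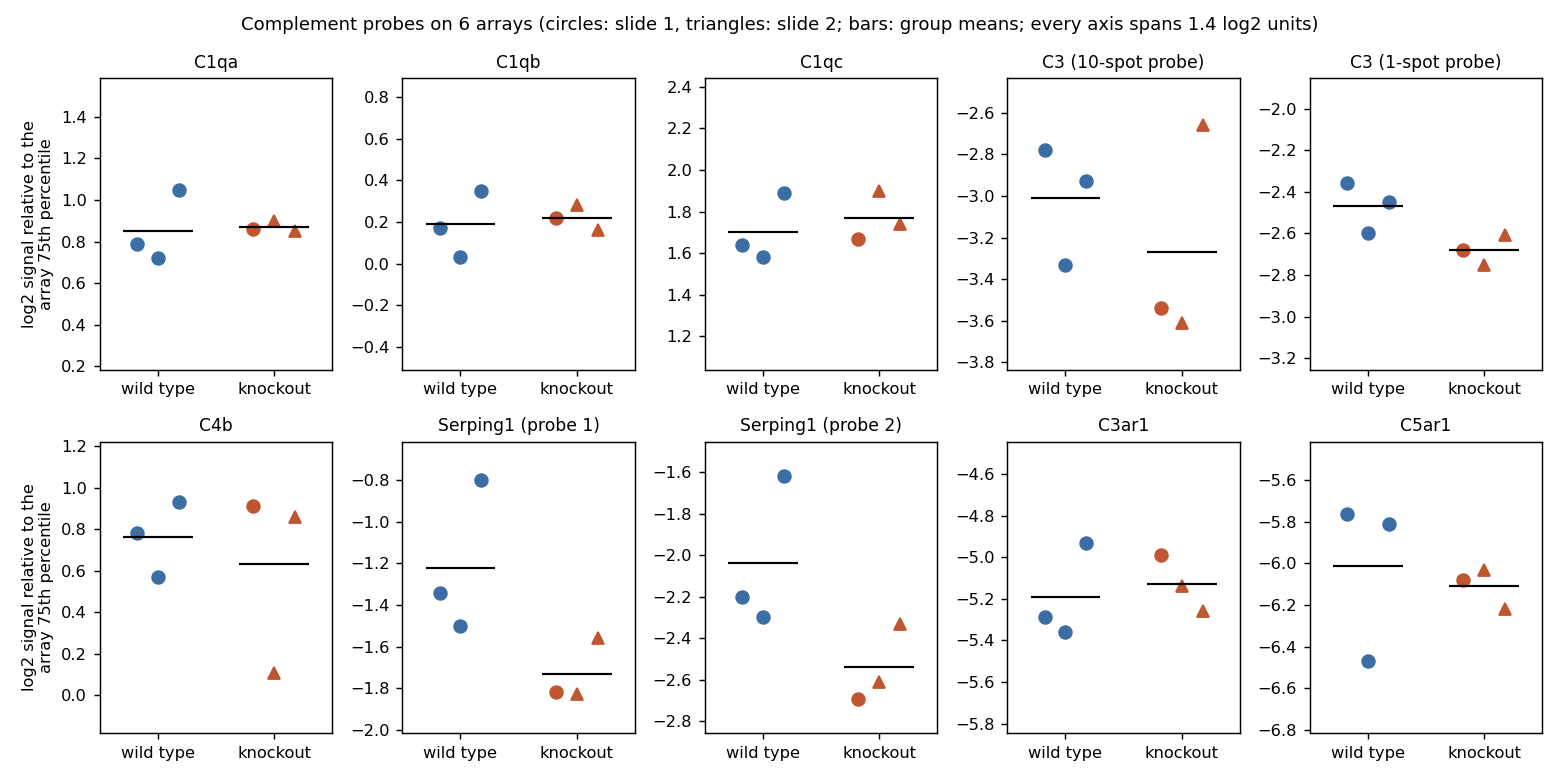
Level of each complement probe on the 6 arrays (log2, scaled as described), with wild type in blue, knockout in orange, slide 1 as circles, slide 2 as triangles and group means as bars. Both Serping1 probes and the 1-spot C3 probe show no overlap between groups, and knockout 2 stands low for C4b.

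None of the 8 genes passed an adjusted p of 0.05, and neither did any other gene: 0% of 22578 genes and 0% of 31954 probes were called by limma with Benjamini-Hochberg adjustment. At an unadjusted p under 0.05, 1 complement gene, Serping1, was lower in knockout and 0 were higher. Over all genes 2806 had an unadjusted p under 0.05, and 9.35% of genes were lower and 3.07% higher at that limit. C3 and Serping1 were lower with no overlap between groups and 0 members were higher without overlap, against 12.2% and 7.6% of all genes. The differences of the 8 genes were positive in 4 and negative in 4, with a median of -0.04, beside -0.01 for all genes, 53.1% of which were lower in knockout. Centred on the median, the split of the 8 genes was 2 lower and 6 higher and that of all genes 27.1% lower, and without wild-type 2 the 8 genes split 7 and 1. With quantile normalization, 0 of the 8 genes were lower and 1, C3ar1, was higher at an unadjusted p under 0.05. Out of 8 genes, each of the shares for lower genes comes to about 1 gene, so the counts stand near the background.

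The C1q chains, the recognition subunits that start the classical pathway, showed no difference larger than the spread between arrays. C1qa measured 0.79, 0.72 and 1.05 in wild type and 0.86, 0.90 and 0.85 in knockout. The highest and the lowest array were both wild-type, wild-type 3 and wild-type 2. The difference was 0.02 ± 0.10 (SE, n = 3 arrays a group; limma adjusted p = 0.94), and its 95% interval ran from -0.22 to 0.27, a ratio of 0.858 to 1.2. C1qb measured 0.17, 0.03 and 0.35 in wild type and 0.22, 0.28 and 0.16 in knockout. Every knockout value lay inside the wild-type range. The C1qb difference was 0.03 ± 0.10 (SE; adjusted p = 0.901), with an interval of -0.21 to 0.27. C1qc, read by 10 spots an array before flagged spots were dropped and by 8 on knockout 2 and 3, measured 1.64, 1.58 and 1.89 in wild type and 1.67, 1.90 and 1.74 in knockout. The groups again overlapped, with a difference of 0.07 ± 0.11 (SE; adjusted p = 0.805) and an interval of -0.20 to 0.34. The intervals of all 3 chains leave room for changes of about the size of the spread between arrays, which from lowest to highest was 1.26-fold for C1qa and 1.25-fold for the others. With arrays centred on the median the differences were 0.16, 0.18 and 0.21, beside 0.15 for the microglia list and 0.13 for the median of all genes.

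The 3 chains moved together from array to array. As deviations from the wild-type mean, their mean was -0.05, -0.14 and 0.18 in wild type and 0.01, 0.12 and 0.01 in knockout. On any array the chains differed from one another by 0.03 to 0.15. The root mean square distance between centred profiles was 0.03 for C1qa and C1qb, and 0.06 for each of them with C1qc. C3ar1 came next, at 0.08 to 0.13 from the chains. These distances are over 6 arrays, and all genes of an array share its RNA and its scaling. Microglia, the main source of C1q in brain, had 17 listed markers, all measured. Their median difference was 0.00, with 9 higher and 8 lower, and the list's median deviation per array was -0.10, -0.01 and 0.12 in wild type and -0.09, 0.10 and -0.04 in knockout. Of the brightest, Csf1r differed by -0.03 ± 0.09 (SE), Siglech by -0.12 ± 0.10 and Ctss by 0.24 ± 0.07. In whole tissue, fewer cells of a type and less RNA per cell cannot be told apart. The profiles nearest to the C1q mean among 7969 genes brighter than 0 were those of Mtfp1 (0.0143), Aldh7a1 (0.0194) and Kdr (0.0197), given as root mean square distances over 6 arrays. The C1q profile itself had an SD of 0.11, so it held little variation to match.

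The C1q genes share chromosome 4 with Pla2g2e. The nearest C1q probe lay 1.99 Mb from the nearest Pla2g2e probe, with 37 tested genes between them. Of those genes 6 were lower and 3 higher at an unadjusted p under 0.05, against 9.35% and 3.07% of all genes, and their median difference was -0.05. With quantile normalization 5 were lower and 7 higher, and with slide as a block 7 and 0.

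C4b, the component cut after C1 activation, measured 0.78, 0.57 and 0.93 in wild type and 0.91, 0.11 and 0.86 in knockout. Knockout 2 was the lowest of the 6 arrays, and the other two knockout arrays lay inside the wild-type range. The difference was -0.14 ± 0.24 (SE; limma adjusted p = 0.829), with a 95% interval of -0.72 to 0.44. Without knockout 2 it was 0.12 ± 0.13, within slide 1 it was 0.15, and with arrays centred on the median it was 0.01, so its sign was not settled. Knockout 2 was also low for other transcripts. The 9 oligodendrocyte markers had median deviations of -0.10, 0.46 and -0.38 in wild type and -0.07, -0.76 and -0.35 in knockout. The Y-linked genes Ddx3y and Eif2s3y, which encode an RNA helicase and a translation factor subunit, deviated by -0.56 and -0.88 in knockout 2. In the other arrays Ddx3y deviated by -0.04 to 0.13 and Eif2s3y by -0.20 to 0.04. Further Y-linked genes were mixed in knockout 2, with Uty probes at -0.55 and -0.57, Kdm5d at -0.44 and Uba1y probes at 0.40 and -0.26. Ddx3y (0.129) and Eif2s3y (0.157) were also the nearest profiles to C4b among 7969 genes, followed by BC094435 (0.189), against an SD of 0.32 for C4b. The part of these transcripts or of that sample in the C4b value was not tested.

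C3, the component on which all activation routes converge, gave unlike answers with its probes. The 1-spot probe, the brighter of the pair, measured -2.36, -2.60 and -2.45 in wild type and -2.68, -2.75 and -2.61 in knockout. The groups did not overlap, but wild-type 2 and knockout 3 almost touched. The difference was -0.21 ± 0.09 (SE; limma unadjusted p = 0.0544, adjusted p = 0.404), or 1.15-fold lower in knockout, with a 95% interval of -0.42 to 0.01. The 10-spot probe measured -2.78, -3.33 and -2.93 in wild type and -3.54, -3.61 and -2.66 in knockout. Here knockout 3 was the highest of all 6 arrays while the other two knockout arrays were the lowest. The difference was -0.26 ± 0.29 (SE; adjusted p = 0.734 over all probes), with an interval of -0.97 to 0.45. It was -0.57 without knockout 3, -0.09 without knockout 2, -0.12 without knockout 1, -0.14 without wild-type 1, -0.42 without wild-type 2 and -0.53 with slide as a block. The SD between the spots of that probe on 1 array was 0.036 to 0.0724, which covers spot noise only. For knockout 3 the probes deviated from the wild-type mean by -0.14 and 0.35, and the cause was not tested. With arrays centred on the median, the 1-spot difference was -0.06, and with quantile normalization it was -0.12, and the groups overlapped in both.

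Of the lists for cells known to make C3 in brain, the 18 reactive astrocyte genes had a median difference of -0.14, with 6 higher and 12 lower. With median centring that was 0.00, with 9 higher and 9 lower. Leaving out 1 array gave -0.22 (without wild-type 2) to -0.05 (without wild-type 3). The 13 astrocyte markers had a median of 0.01 with 7 higher and 6 lower. That median was -0.09 with slide as a block and 0.15 with median centring. The nearest profiles to the 1-spot C3 probe among 13310 genes brighter than -3 were Cetn4 (0.0345), Caprin2 (0.0346) and Slc26a11 (0.042), against an SD of 0.14 for C3. Of 10 hepatocyte markers on the array, liver being the main source of blood C3, 6 were measured, among them Ttr, which choroid plexus also makes, Apoh and Cyp2e1. Alb, Apoa1, Ahsg and Fgg did not pass the filter on dim probes.

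Serping1 encodes C1 inhibitor, the serpin that inactivates C1r and C1s and the lectin pathway protease Masp2. Of the 8 genes it had the difference farthest from 0. Its brighter probe (chr2:84605663-84605722) measured -1.34, -1.50 and -0.80 in wild type and -1.82, -1.83 and -1.56 in knockout. The groups did not overlap, and the gap between wild-type 2 and knockout 3 was small beside the distance of wild-type 3 from the other wild-type arrays. The difference was -0.52 ± 0.20 (SE; limma unadjusted p = 0.0391, adjusted p = 0.382), 1.43-fold lower in knockout, with a 95% interval of -1.0 to -0.04. The probe across the junction measured -2.20, -2.30 and -1.62 in wild type and -2.69, -2.61 and -2.33 in knockout, a difference of -0.50 ± 0.20 (SE; adjusted p = 0.41 over all probes). The probes followed each other, with a root mean square distance of 0.04, so the pattern was not that of 1 probe. Both lie on the same RNA samples and are no replicates of the condition.

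Wild-type 3 carried much of the Serping1 difference. Without it the value was -0.31 ± 0.12 (SE), and without wild-type 2 it was -0.66 ± 0.19. On slide 1, which holds all wild-type arrays and knockout 1, it was -0.60 ± 0.32. With median centring it was -0.37 and the groups overlapped. Meningeal and fibroblast markers, which include collagens and other genes of the brain's covering, moved with it. All 17 were measured, 16 were lower and 1 higher, and their median difference was -0.45. At an unadjusted p under 0.05, 7 were lower, against 9.35% of all genes, and this count was 3 without knockout 1, 4 without knockout 2 and 12 without wild-type 2. The list's median deviation was -0.06, -0.29 and 0.38 in wild type and -0.65, -0.40 and -0.35 in knockout. Among the brightest of them, Aebp1 differed by -0.40 ± 0.14 (SE), Slc13a4 by -0.43 ± 0.20 and Mgp by -0.64 ± 0.35. Each of these 17 markers was well above background on at least 1 array. The part of these markers in the Serping1 value was not tested. The nearest profiles to Serping1 among 13310 genes were Fxyd5 (0.0667), 6720422M22Rik (0.0742) and Smoc1 (0.0742), against an SD of 0.38 for Serping1.

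Other cell lists also differed. Pericytes and smooth muscle had a median difference of -0.28 with 11 of 11 lower, border macrophages -0.49 with 12 of 13 lower, choroid plexus -0.58 with 10 of 10 lower, blood leukocytes -0.46 with 17 of 18 lower, striatum -0.87 with 12 of 12 lower and oligodendrocytes -0.39 with 8 of 9 lower. For pericytes and smooth muscle, 7 were lower and 4 higher with median centring (median -0.14), and 8 and 3 with quantile normalization (-0.24). Leaving out 1 array gave -0.33 to -0.25 for that list. Single arrays carried much of the other medians. Without wild-type 3 they were -0.10 for border macrophages, -0.36 for striatum, -0.15 for leukocytes and -0.35 for choroid plexus. Without wild-type 2 they were -1.01 for leukocytes, -1.13 for choroid plexus and -0.14 for oligodendrocytes, and without knockout 2 the last was -0.19. Choroid plexus was -0.37 without wild-type 1 and -0.88 without knockout 1. On slide 1 alone choroid plexus was -0.04, leukocytes -0.14 and oligodendrocytes -0.07. Endothelium (0.03) and neurons (0.02) lay near 0, and the 6 measured hepatocyte markers had a median of 0.12, or -0.02 with normexp. For striatum the deviation was 1.02 in wild-type 3 and -0.30 and -0.69 in the other wild-type arrays, beside -0.87, -0.80 and -0.92 in knockout. These lists give marker RNA levels and not cell numbers, and 0 of their genes passed the adjusted threshold.

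**Figure D2:**
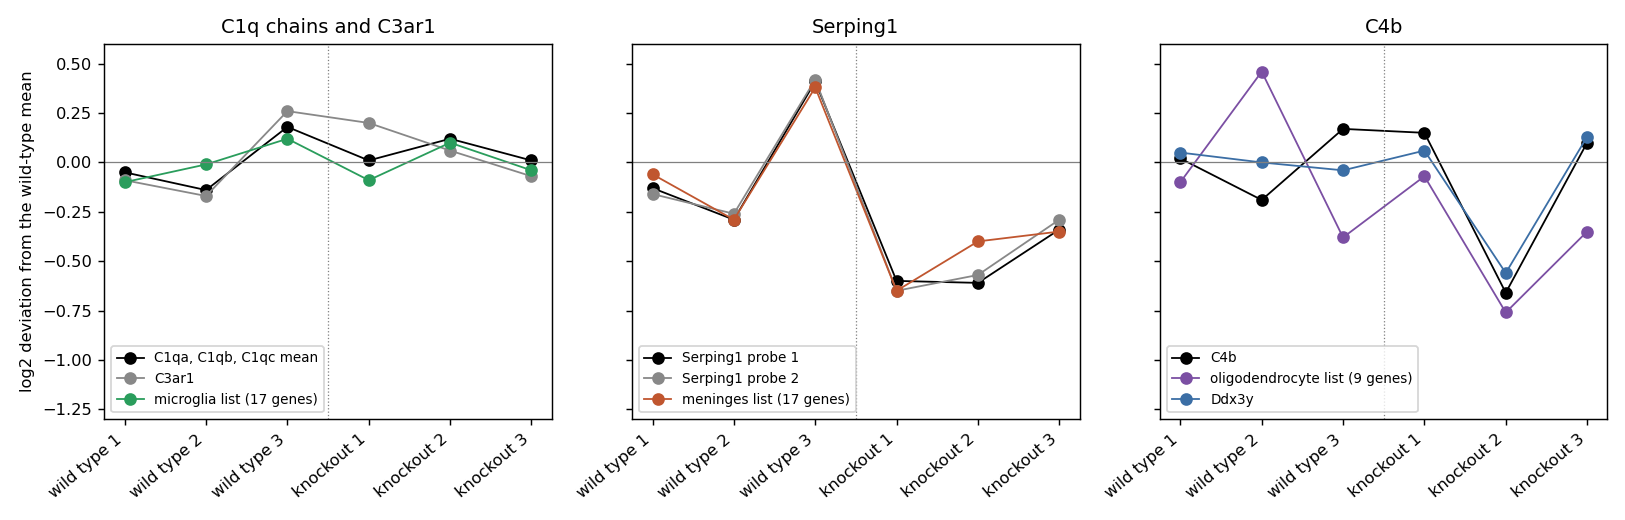
Deviation from the wild-type mean (log2, vertical axis) on each of the 6 arrays for the C1q mean and C3ar1 with the microglia list (median of 17 genes), for both Serping1 probes with the meninges list (median of 17 genes), and for C4b with the oligodendrocyte list (median of 9 genes) and Ddx3y. Serping1 and the meninges list are both highest in wild-type 3 (0.41 and 0.38), and C4b and Ddx3y are both lowest in knockout 2 (-0.66 and -0.56).

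With arrays scaled on the 75th percentile, neither receptor differed between groups by more than the spread between arrays. C3ar1, the receptor for C3a found on microglia and macrophages, measured -5.29, -5.36 and -4.93 in wild type and -4.99, -5.14 and -5.26 in knockout. Wild-type arrays gave both the highest and the lowest value. The difference was 0.06 ± 0.14 (SE; limma adjusted p = 0.865), with a 95% interval of -0.27 to 0.40. With quantile normalization the C3ar1 difference was 0.26 ± 0.10 (SE; limma unadjusted p = 0.0474, adjusted p = 0.451). With median centring it was 0.21, and the groups overlapped in both. C5ar1, the receptor for C5a, measured -5.76, -6.47 and -5.81 in wild type and -6.08, -6.03 and -6.22 in knockout. Wild-type 2 was the lowest of the 6 arrays, and all knockout values lay between it and the other two. The difference was -0.10 ± 0.20 (SE; adjusted p = 0.863), with an interval of -0.59 to 0.40. Without wild-type 2 it was -0.33 ± 0.08 with no overlap between groups (adjusted p = 0.22), and with quantile normalization it was 0.08. Their processed signals were 46.5 to 66.9 units for C3ar1 and 21.5 to 38 units for C5ar1, so the treatment of background weighs more on them than on C1qc, whose signals were 5713 to 7419 units.

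**Figure D3:**
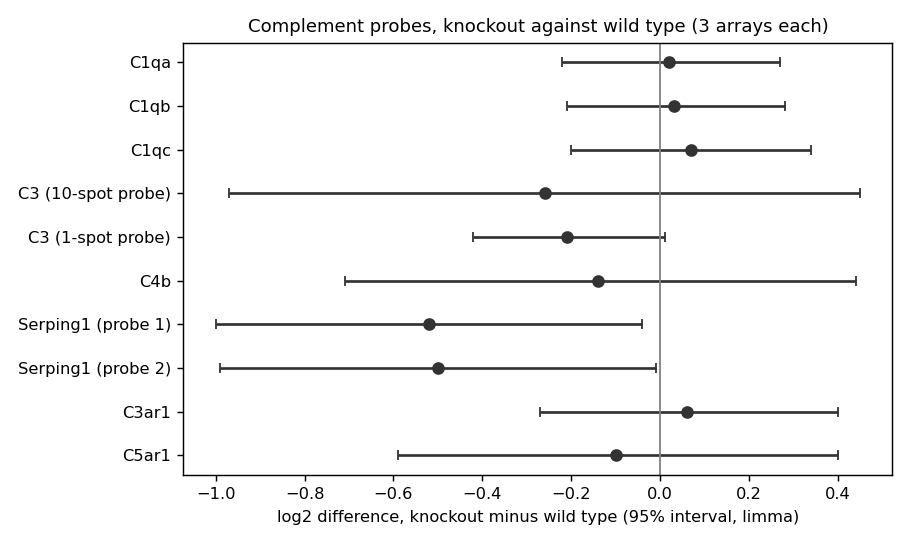
Difference between knockout and wild type for each complement probe (log2, horizontal axis), with points for the limma estimate and bars for its 95% interval, 3 arrays a group. The intervals of C1qa, C1qb and C1qc lie around 0, and those of both Serping1 probes end just under 0 (-0.04 and -0.01).

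The rest of the pathway was followed through 51 further complement genes, of which 49 were on the array and 43 could be tested. C4bp, C8a, C9, Cfi, Colec10 and Cpn1 did not pass the filter on dim probes. Of the 43, 33 were lower and 10 higher, with a median of -0.16, beside -0.01 for all genes. The split depended on the scaling, at 24 lower and 19 higher with quantile normalization and 23 and 20 with median centring, where the medians were -0.01 and -0.02. At an unadjusted p under 0.05, 8 of 43 were lower, against 9.35% of all genes, and 2 were higher, against 3.07%. One of these 2, Mbl1, passed the filter on dim probes only through the knockout arrays, and with probes well above background on all arrays 1 gene was higher. With no overlap between groups 7 were lower and 2 higher, against 12.2% and 7.6% of all genes. By adjusted p, 0 passed, and the smallest was 0.191. Without wild-type 3, the counts at unadjusted p were 6 lower and 1 higher, and with slide as a block they were 3 and 0. Quantile normalization gave 4 lower and 2 higher, and median centring 5 and 2.

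The membrane-bound regulators, which shield the body's own cells from complement, had 10 measured members, of which 4 were lower at an unadjusted p under 0.05, against 9.35% of all genes. Cd55b, a paralog of the decay-accelerating factor Cd55, measured -5.01, -4.89 and -4.91 in wild type and -5.72, -5.69 and -5.50 in knockout. The groups were well apart, at a difference of -0.70 ± 0.08 (SE; limma unadjusted p = 0.000159, adjusted p = 0.191), 1.63-fold lower in knockout. With normexp background correction it was -0.40. The second Cd55b probe differed by -0.37 ± 0.21 (SE) and its groups overlapped. Signals of near copies may be shared on an array. Cd55 itself differed by -0.32 ± 0.13 with overlapping groups. Cd46, a cofactor for C3b and C4b cleavage, differed by -0.31 ± 0.06 (SE; adjusted p = 0.244), from -5.39, -5.45 and -5.50 to -5.72, -5.77 and -5.78, and its second probe overlapped at -0.23 ± 0.13. With normexp Cd46 was -0.18 and with quantile normalization -0.12. Cr1l, the rodent regulator Crry, differed by -0.21 ± 0.08 (SE). Median centring gave -0.17 for Cd46 and Cd55 and -0.07 for Cr1l. All 4 probes lie on chromosome 1, Cd55 and Cd55b near each other and Cd46 near Cr1l. Susd4 (0.04) and Csmd1 (0.05), the brightest of this group, had differences near 0.

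Among the classical pathway proteases, C1ra stood apart in 1 sample. It measured -0.47, -0.59 and -2.50 in wild type and -0.77, -0.44 and -0.55 in knockout. Wild-type 3 was the one low array, and the second C1ra probe showed the same, at -3.21 against -1.56 to -1.32 elsewhere. C1rb was also lowest there, at -6.29. The C1ra difference was 0.60 ± 0.55 (SE), and without wild-type 3 it was -0.06. C1rl, a C1r-like protease, differed by -0.41 ± 0.12 with no overlap, or by -0.26 with median centring, and C2 by -0.17 ± 0.10, or by -0.10 without wild-type 3.

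Of the lectin pathway, Mbl1, a mannose-binding lectin, did not stand well above background in wild type (0 of 3 arrays) and did so in knockout (3 of 3). Its measured means were -9.08 in wild type and -7.59 in knockout. With each wild-type array set to its lowest signal well above background, or to the Mbl1 signal where higher, the ratio was 2.29. This is no lower bound, since wild-type 1 and 3 (-8.85 and -8.72) lay above that limit (-8.91 and -8.83). Since Mbl1 entered the comparison only through the group where it is high, the ratio is a description with no test. Knockout 1, at -8.76, lay among the wild-type values of -9.67 to -8.72, and the higher arrays, knockout 2 and 3 at -6.82 and -7.19, are those of slide 2. With slide as a block the difference was 0.32, and with normexp it was 0.11. Masp1, a lectin pathway protease, differed by 0.42 ± 0.13 (SE) with its brightest probe, by 0.05 when that probe was corrected with normexp, and by -0.15 ± 0.23 with another. Fcnb, a ficolin, differed by -0.61 ± 0.22, by -0.19 with normexp and by -0.38 without knockout 3. The brightest genes of this pathway lay near 0. Masp2 differed by -0.09 ± 0.24, or by 0.18 without wild-type 3, and Colec11 by -0.09 ± 0.07, or by 0.05 with median centring.

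Cfb, the alternative pathway protease, varied widely. It measured -4.71, -6.78 and -3.82 in wild type and -6.02, -6.21 and -6.61 in knockout, a difference of -1.18 ± 0.74 (SE) with overlapping groups. It was -0.54 without wild-type 3, -2.02 without wild-type 2 and -0.70 with normexp. Wild-type 1 and 3 were high and wild-type 2 was the lowest of all. Cfp, or properdin, differed by -0.16 ± 0.21, and by 0.07 without wild-type 3. Among terminal components, Hc, the mouse C5 gene, measured -4.25, -4.39 and -4.72 in wild type and -5.39, -5.24 and -4.53 in knockout, a difference of -0.60 ± 0.25 with overlapping groups, or -0.94 with slide as a block and -0.35 with normexp. C8g, the brightest terminal component, differed by 0.01 ± 0.07, and its other probe by -0.16 ± 0.09. Of fluid-phase regulators, Clu, or clusterin, differed by -0.05 ± 0.06, or by 0.10 with median centring, Vtn by -0.19 ± 0.11, or by -0.08 without wild-type 3, and Cpn2, a carboxypeptidase N subunit, by -0.40 ± 0.10, the last by -0.11 with normexp. Of the receptors, Itgam, the alpha chain of complement receptor CR3 on microglia, differed by -0.17 ± 0.13 with its brightest probe. That was -0.07 without knockout 1 and -0.37 with slide as a block. Its other probes differed by -0.10 ± 0.06, with no overlap between groups, and by 0.07 ± 0.22. C1qbp differed by 0.07 ± 0.06 and Vsig4, a macrophage receptor for C3 fragments, by -0.45 ± 0.13, or by -0.16 with normexp.

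**Figure D4:**
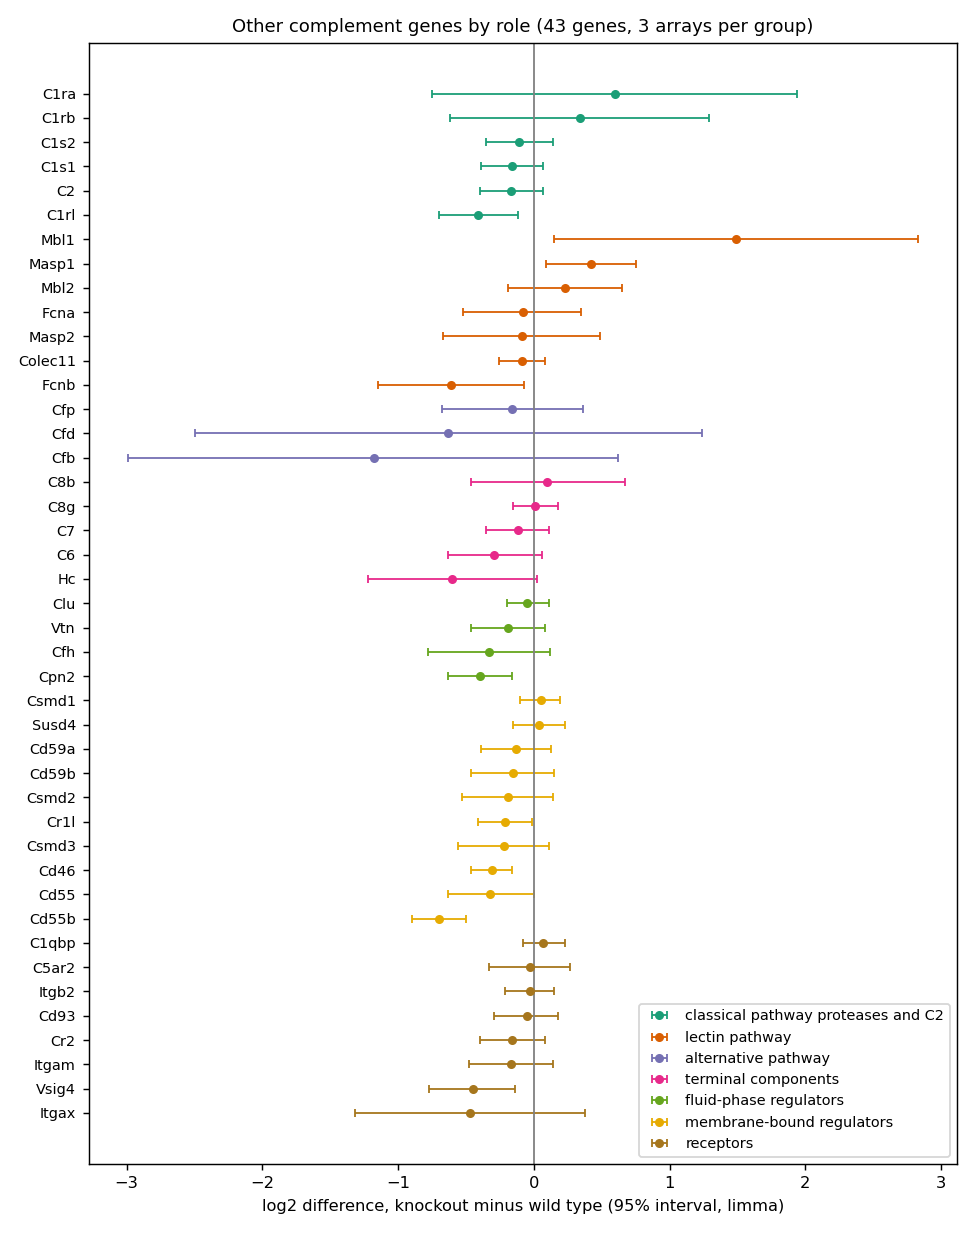
Difference between knockout and wild type for the 43 other complement genes (log2, horizontal axis), grouped and coloured by role, with limma's 95% interval as bars. Among the membrane-bound regulators Cd55b (-0.70) and Cd46 (-0.31) have narrow intervals under 0, while Cfb, Cfd, C1ra and Mbl1 have the widest. Mbl1 passed the filter on dim probes only through the knockout arrays, so its interval is no test.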

How the data were processed

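Each of the 6 files holds 1 array (design 026655). The processed signal is an intensity that Agilent Feature Extraction 12.1.1.1 (protocol GE1_1200_Jun14, mm9 grid) had background-subtracted, per the file headers. Mean and background intensities, as deposited, served only for the normexp alternative (offset 50).

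Total RNA (200 ng) was labelled with Cy3, per the labels' protocols. Control and flagged spots (68 to 530 an array) were left out. Log2 signals of the spots of a probe were averaged, and the array's 75th percentile over probes was then subtracted. A probe was tested when well above background on every array of 1 group, and the brightest tested probe stood for a gene. Groups came from titles. Names came from the files, updated through RefSeq for 29510 probes. The 2030 probes with no name were not tested as genes.

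Genes were fitted with limma 3.58.1 (lmFit, eBayes) in R 4.3.3, two-sided, with Benjamini-Hochberg adjustment over 22578 genes, and probes in a second fit over 31954. Exact permutation of 3 against 3 cannot go below 0.1 and was not used. Pattern likeness is the root mean square difference of centred profiles. The 95% intervals are limma's. The 18 alternatives changed background correction, normalization, filter, probe rule, flags, slide, replicate block, prior and arrays left out.

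The genes, the lists and the named genes (all members, and of other complement genes the 2 brightest a role and those with an unadjusted p under 0.05) were chosen with earlier results of these data known. C1rb, Cfd and the Y-linked genes were named after their values were seen.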

Additional observations from a re-analysis of the deposited data

How the results depend on the processing

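Over 18 alternatives, 0 of the 8 complement genes and 0 of the other complement genes passed the adjusted threshold. Over all genes 0 passed, except 60 without knockout 1, so that leaving out 1 array gave 0 to 60. Serping1 stayed negative in all 18, from -0.66 to -0.31, and C3 from -0.27 to -0.06. Centring on the array median put the median over all genes at 0.13, and with it C4b was 0.01 and C5ar1 0.05. Quantile normalization gave 0.08 for C5ar1 and 0.26 for C3ar1. With a block for slide, and on slide 1 alone, C1qc was -0.03 and C4b 0.15. Leaving out 1 array moved C1qa from -0.04 to 0.12, C1qb from -0.04 to 0.12, C3ar1 from -0.02 to 0.19, C4b from -0.28 to 0.12 and C5ar1 from -0.33 to 0.03. The C4b sign turned without knockout 2, and the C5ar1 sign without wild-type 1 (0.03) or 3 (0.01). The cause was not tested. The astrocyte median was -0.04 with marked spots kept, -0.09 with a slide block and on slide 1 alone, and -0.05 to 0.02 with 1 array left out.

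Same-numbered samples had correlations of deviations of -0.0159, -0.135 and -0.118. These values show no pairing by replicate number but cannot exclude one. With the replicate block, 2406 genes had an unadjusted p under 0.05, against 2806. Serping1 was -0.52 ± 0.12 (SE; limma unadjusted p = 0.0108, adjusted p = 0.364) with that block, against an SE of 0.20 without it. Dim probes such as C5ar1, Mbl1 and Cpn2 are limited by their signal over background.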

Other observations

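Cfd, or adipsin, an alternative pathway protease abundant in fat tissue, measured -8.27, -8.17 and -5.46 in wild type and -7.73, -7.94 and -8.12 in knockout. The difference was -0.63, and 0.29 without wild-type 3. Wild-type 3 was thus the high array for Cfd, as for Serping1, and the low array for C1ra. Kdm5d, a Y-linked histone demethylase, deviated from the wild-type mean by -0.47, -0.44 and -0.60 in the knockout arrays, unlike Ddx3y, which was low in knockout 2 alone at -0.56.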
